A study of Danio rerio with 30 samples.

Results

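The genes that encode the subunits of the mitochondrial respiratory chain and ATP synthase were followed in cells sorted from zebrafish larvae. Members were the rows of the deposited count table whose Ensembl gene name, ignoring case, began with nduf, uqcr, cox4 to cox8, atp5 or sdha to sdhd, together with the 13 protein genes of the mitochondrial genome. This gave 121 of 32520 genes, 108 in the nucleus and 13 in mitochondria. The name patterns also took in 8 complex I assembly factors (NDUFAF genes), 4 complex II assembly factors (SDHAF genes) and 2 genes for the ATP synthase inhibitor, which are described apart from the subunits. After a filter on low counts 117 members could be tested among 22000 genes. The 4 others were NDUFB4, NDUFS1, SDHD (ENSDARG00000055712) and ndufa4l2b, and each stayed under 1 CPM (read counts scaled to a common library size by TMM) in every library.

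The study sorted mCherry-positive cells of the posterior lateral line, labelled as neuromast cells, from larvae 5 days after fertilization that carry the she:mcherry reporter. RNA was sequenced from 4 groups of 3 libraries each, which cross the genotype at isl1a, a LIM homeodomain transcription factor gene, with treatment by neomycin, an aminoglycoside that kills lateral line hair cells. Siblings in homeostasis and isl1apsi97 mutants in homeostasis received no neomycin. Siblings and isl1apsi97 mutants of the other groups were exposed to 300 uM neomycin for 30 min, washed, and sampled 3 h later. Every group carried the reporter and went through the same sort, and the labels say neither how many larvae went into a library nor the exact genotype of the siblings. Depth ran from 23918226 to 30354161 counts in genes per library. The isl1a row, named ISL1 (ENSDARG00000004023), had 3351 to 6634 counts in the 6 sibling libraries and 0 to 35 in the 6 mutant libraries. All 13 hair cell markers and all 11 support and mantle cell markers searched for had counts.

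Oxidative phosphorylation passes electrons from NADH through complex I, or from succinate through complex II, to coenzyme Q, then through complex III and cytochrome c to complex IV, where oxygen is reduced. Complexes I, III and IV pump protons, and complex V uses the proton gradient to make ATP. The catalytic cores of complexes I, III and IV and the proton channel of complex V contain proteins made inside mitochondria, while most subunits are made in the cytosol and imported, so the complexes draw on both genomes. Hair cells are rich in mitochondria, and aminoglycosides are known to load lateral line hair cell mitochondria with calcium. The roles given below are known mainly from mammals, and many symbols in the name table are written in the human style.

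Replicate 2 of the siblings 3 h after neomycin stood apart from all other libraries in these genes. Of the 117 tested members, 104 had their highest CPM there (88.9%, against 25.2% of all tested genes). Its CPM was a median 2.77 times the mean of the other 2 libraries of its group over the members, 1.59 times over the mitochondrially encoded ones, against 1.01 times over all tested genes. The pattern touched all 30 tested accessory subunits of complex I, which were raised at least 2.1 times, while 11 of the 117 members had a ratio under 1.5. These were NDUFS8, ATP5F1A, SDHA, sdhaf1, uqcrc2a, MT-CO1, MT-ND1, MT-ND2, MT-ND4, mt-nd4l and MT-ND5, whose ratios lay between 0.86 and 1.47; the value of 1.5 was chosen after the ratios were seen. Nuclear members took 1.76% of the gene counts of that library and 0.837 to 1.02% of the other 11. In the same library the TMM factor was 0.756 (other libraries 0.916 to 1.1), ambiguous reads made up 4.49% (2.2 to 3.15%) and reads outside genes 13.6% (15.7 to 20.2%). Marker sums also differed: hair cell markers summed to 3608, 9509 and 3117 CPM in replicates 1, 2 and 3 of the group, leukocyte markers summed to 419.7, 1036 and 301 and liver and plasma protein markers to 792, 4996 and 2940.3. Most of the hair cell sum came from pvalb8 (1769, 5117 and 1468) and s100t (843, 3028 and 733). Single hair cell markers went both ways. ATP2B1 (202, 566 and 201) was also highest in replicate 2. OTOF (ENSDARG00000020581, 301, 137 and 210) and MYO6 (ENSDARG00000042141, 105, 48.7 and 96.2) were lowest there. The part of these differences in the members' values was not tested. The tests below were therefore run with all 12 libraries and with the 11 that remain without that library, an alternative chosen after the data were seen. That library was left out because the members were high in it. By that choice alone, the sibling 3 h level of most members is lower in the 11-library fit, which bears on every comparison with that group. The 11-library fit keeps replicate 2 of the mutants 3 h after neomycin, whose nuclear members were a median 1.31 times the mean of the other 2 libraries of its group, and whose nuclear complex I members summed to 3048 CPM against 2231 and 2258. Its TMM factor, 0.916, was the lowest of the 11. With both libraries left out, 7 members were called between the genotypes in homeostasis, 3 between them at 3 h, 24 in siblings and 13 in mutants after neomycin, and 1 for the interaction. The shares of all tested genes called in that fit are not given here, so these counts are a description. In the 11-library fit 9.24%, 13%, 22.3%, 27.3% and 0.92% of all tested genes were called in these comparisons.

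**Figure D1:**
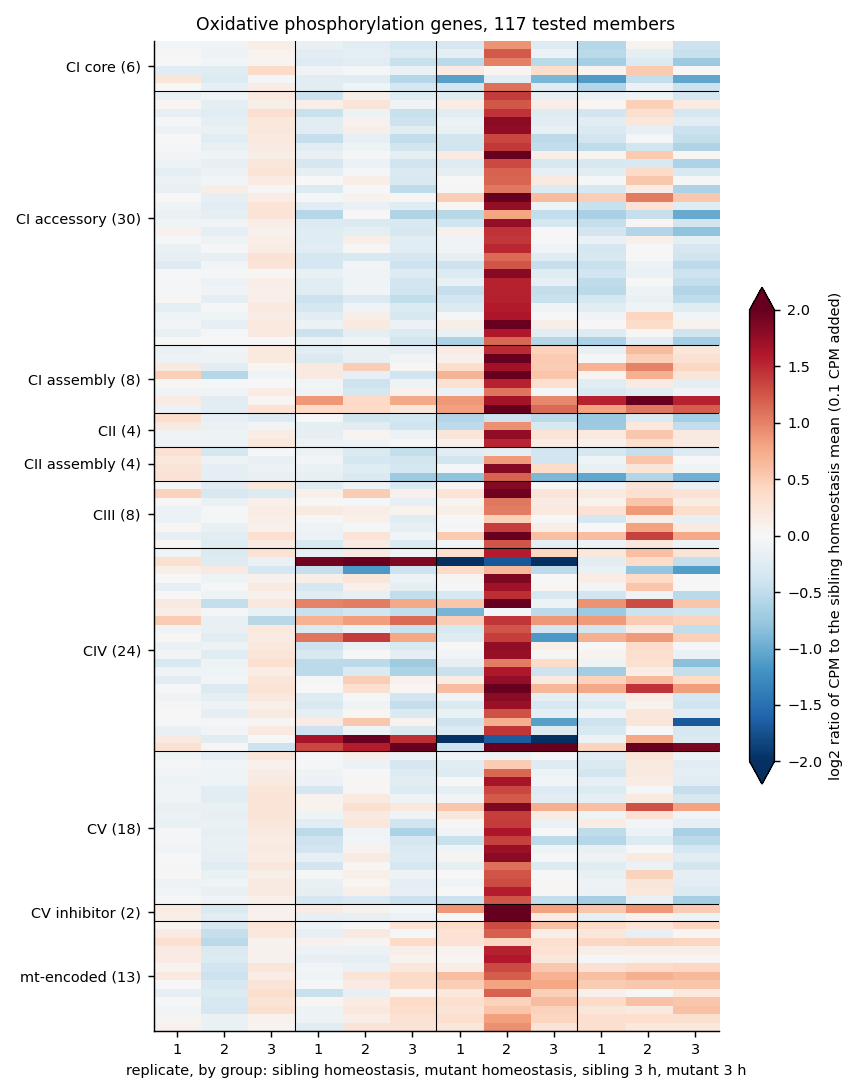
Each row is 1 of the 117 tested members, grouped by complex and role (number of members in parentheses), and each column is a library; colour is the log2 ratio of CPM to the sibling homeostasis mean, with 0.1 CPM added to both. Replicate 2 of the siblings 3 h after neomycin is red over most rows, where 104 of 117 members are at their highest, and the dark blue cells of the same group are cox4i1l and ndufa4b.

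Between the genotypes few members differed beyond the spread of the libraries, and with 11 libraries these were cox4i1l, ndufa4b and cox6b1 of complex IV and the assembly factor NDUFAF7. After neomycin more members were called, in both directions. A gene is called higher or lower at an adjusted p under 0.05 in a two-sided edgeR quasi-likelihood test, adjusted by Benjamini-Hochberg across the tested genes, and every adjusted p below is from that test. Fold changes are log2 values with their standard error. In mutants against siblings in homeostasis, 1 member was higher and 0 were lower in the 12-library fit, where 3.43% of all tested genes were called (1.79% higher and 1.64% lower), and 4 were higher and 0 lower in the 11-library fit, where 9.24% were (3.98% higher and 5.26% lower). Of the 117 members, 6 and 19 had an unadjusted p under 0.05 in these fits. In the same comparison 3 h after neomycin, 2 members were higher and 1 lower against a background of 9.57% (4.82% higher and 4.75% lower), and 4 were higher and 0 lower without the library that stood apart, against 13% (7.11% and 5.91%). After neomycin in siblings, 13 members were higher and 2 lower against 21.6% (11% and 10.7%), and 7 were higher and 12 lower against 22.3% (9.24% and 13.1%) with 11 libraries; 9 members were called in both fits, each in the same direction. After neomycin in mutants, 1 was higher and 2 lower against 16.2% (6.8% and 9.43%), and 8 were higher and 3 lower against 27.3% (13% and 14.3%) with 11 libraries. Over both directions, the share of members called was below the background in each of these 8 counts, and the share called higher in siblings with 12 libraries was near it. The mutant and the sibling response differed for 0 members with 12 libraries, where 0.0955% of genes were called, where DESeq2 also called 0 members and where 2 members had an unadjusted p under 0.05; with 11 libraries 1 member differed (0.92%).

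The median log2 change over the tested members in siblings after neomycin was 0.61 with 12 libraries and -0.07 with 11, while over all tested genes it was 0.10 and 0.02. In mutants against siblings 3 h after neomycin it moved likewise from -0.63 to 0.03. The comparisons without a sibling 3 h sample hardly moved: the members' median was -0.13 and -0.15 for mutants against siblings in homeostasis and 0.09 and 0.07 for mutants after neomycin. In homeostasis 89 of 117 fitted values lay below 0 in mutants with 11 libraries, among them 29 of 30 complex I accessory subunits (median -0.23) and 16 of 18 complex V subunits, of which 0 were called. Over all tested genes 11669 of 22615 values lay below 0 in that fit. The members shifted together from library to library, so their signs are not independent and the counts are a description. Against the mean of the other libraries of its group, a library's members had a median ratio of 0.859 to 1.18 in sibling homeostasis. In mutant homeostasis this ratio ran from 0.902 to 1.14. Counts of calls in siblings depended on further single libraries as well, from 4 members without sibling homeostasis replicate 2 to 34 without sibling 3 h replicate 1 in the 12-library fit. Over the fits that left out 1 library each, the count over all genes ran from 2988 to 5323. The share in each single fit is not given here. The comparisons share groups of libraries and are not independent of each other.

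Some calls of the 11-library fit held when any further library was left out and others did not. Those of cox4i1l and ndufa4b for both genotype comparisons and both neomycin comparisons held in all 11 such fits. So did those of NDUFV1 and atp5if1a in siblings and of NDUFAF7, NDUFAB1, ATP5MC3, UQCRH, COX7A2L and atp5if1a in mutants after neomycin. The calls of cox6b1 held in 10 of 11 fits in each genotype comparison. Less secure were NDUFAF7 between the genotypes in homeostasis and SDHC after neomycin in mutants, each kept in 2 of 11, and NDUFV1 in mutants and ndufc1 in siblings, each kept in 4. ATP5MC3 and MT-ND2 in siblings were kept in 5, SDHA, ATP5PO and NDUFB9 in siblings in 6, and NDUFAB1 in siblings and NDUFAF8 in mutants in 7. NDUFAF7 between the genotypes at 3 h and ndufa5, atp5meb and MT-ND1 in siblings were kept in 8. In the 12-library fit the genotype call of cox4i1l in homeostasis was kept in 7 of 12 fits, and was lost without sibling homeostasis replicates 2 or 3 or without any of the 3 mutant homeostasis replicates.

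**Figure D2:**
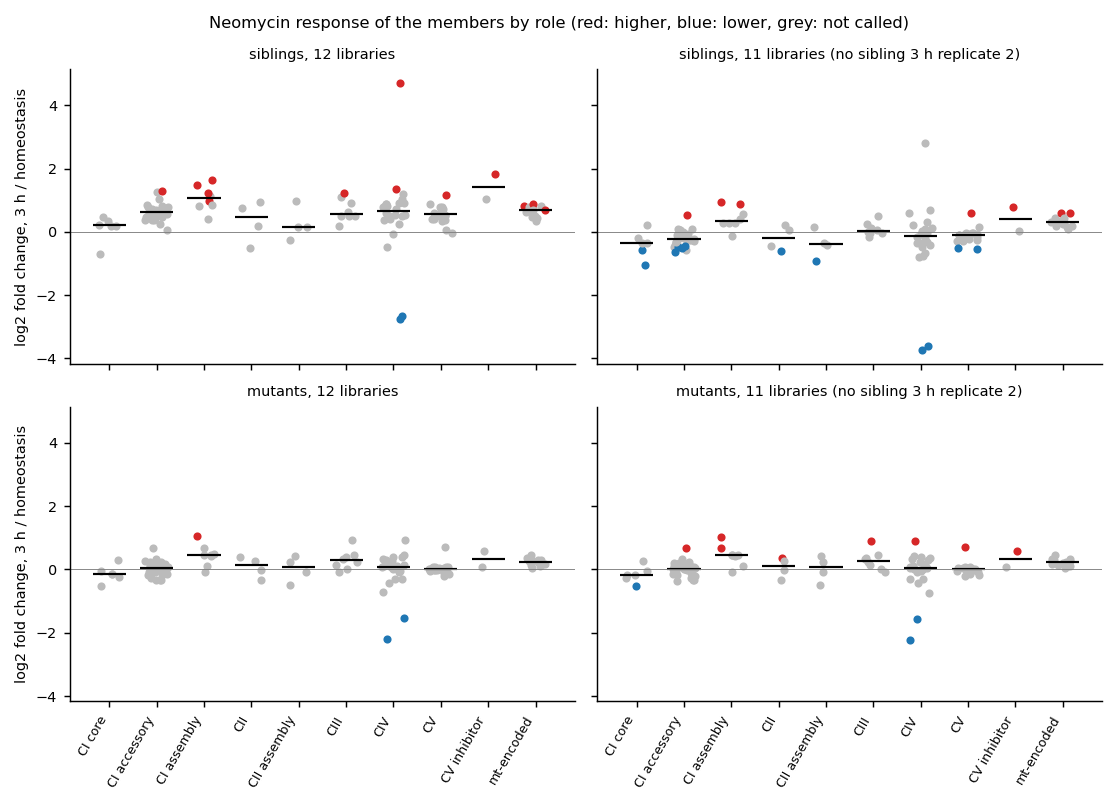
Points are the log2 fold changes of the 117 tested members 3 h after neomycin against homeostasis, by complex and role, in siblings (top) and mutants (bottom), fitted with 12 libraries (left) and with the 11 without sibling 3 h replicate 2 (right); bars are medians, red points were called higher and blue points lower. In siblings the median of every group of members is lower when that library is left out, and with 11 libraries it is 0.34 for complex I assembly factors, 0.42 for the inhibitor genes and 0.31 for the mitochondrially encoded genes, whereas cox4i1l and ndufa4b stay at the bottom in all 4 panels.

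Complex IV, cytochrome c oxidase, held the called members with the largest differences between the genotypes. With 11 libraries cox4i1l, ndufa4b and cox6b1, paralogs of 3 of its subunits, were higher in mutants than in siblings both in homeostasis and after neomycin, and cox4i1l and ndufa4b fell after neomycin in both genotypes in both fits. Of these, cox4i1l (ENSDARG00000012388) is a paralog of COX4I1, the regulatory subunit on which mammalian complex IV activity is tuned. Sibling homeostasis libraries had 11.1, 7.32 and 8.0 CPM of cox4i1l, mutant homeostasis libraries 34, 49.4 and 32.4, sibling 3 h libraries 0.60, 2.66 and 0.744 and mutant 3 h libraries 7.62, 11.4 and 6.29. Mutant libraries were above sibling libraries in homeostasis and again 3 h after neomycin without overlap, and within each genotype every treated library lay below every untreated one. Mutants exceeded siblings by 2.13 ± 0.45 in homeostasis (adjusted p = 0.0216) and by 2.69 ± 0.48 at 3 h (adjusted p = 0.00508). After neomycin its log2 change was -2.75 ± 0.48 in siblings (adjusted p = 0.00167) and -2.2 ± 0.45 in mutants (adjusted p = 0.00557). With 11 libraries these 4 values were 2.11 ± 0.25, 3.64 ± 0.35, -3.75 ± 0.35 and -2.22 ± 0.25, all with an adjusted p of 4.09e-04 or less. Its partner COX4I1 had group means of 119 ± 24.3, 118 ± 14.7, 221 ± 116 and 153 ± 24.1 CPM (SD, n = 3, in the order sibling and mutant homeostasis, sibling and mutant 3 h) and was called in no comparison.

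The gene ndufa4b (ENSDARG00000056108) behaved much alike. It is a paralog of NDUFA4, a small protein first assigned to complex I and now placed in complex IV. In CPM, ndufa4b stood at 15.8, 12.1 and 14.1 in the sibling homeostasis libraries, 44.3, 55.4 and 39.1 in the mutant homeostasis libraries, 1.37, 4.36 and 0.981 in siblings at 3 h and 12.9, 23.9 and 11.4 in mutants at 3 h. Its 3 sibling 3 h libraries were below all 9 others, and its mutant homeostasis libraries were above all 9 others. The log2 difference between mutants and siblings was 1.72 ± 0.45 in homeostasis, which missed the threshold with 12 libraries (adjusted p = 0.0560) and passed it with 11 (1.7 ± 0.25, adjusted p = 0.00121). At 3 h it was 2.87 ± 0.48 (adjusted p = 0.00341) and 3.77 ± 0.34 (adjusted p = 5.81e-05). The fall after neomycin was -2.67 ± 0.48 in siblings and -1.53 ± 0.44 in mutants with 12 libraries (adjusted p = 0.00190 and 0.0340), and -3.62 ± 0.34 and -1.55 ± 0.25 with 11. The response of mutants minus that of siblings was 1.14 ± 0.63 with 12 libraries (adjusted p = 0.641) and 2.07 ± 0.41 with 11 (adjusted p = 0.0357), the only interaction called among the members in these 2 fits, a call kept in 3 of the 11 fits that left out a further library; for cox4i1l it was 1.53 ± 0.41 with 11 libraries (adjusted p = 0.122). NDUFA4 itself had 182 ± 21.8, 152 ± 16.8, 265 ± 198 and 158 ± 20.7 CPM in the same order of groups, and was not called.

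The paralog cox6b1 belongs to the subunit that links the cytochrome c oxidase monomers, with cox6b2 as its partner. Its level was 18, 15.2 and 19.8 CPM in sibling homeostasis, 37.1, 46.8 and 30.4 in mutant homeostasis, 14.9, 46.4 and 7.95 in siblings 3 h after neomycin and 29.1, 31.8 and 24.5 in mutants 3 h after neomycin. It was higher in all 3 mutant than in all 3 sibling homeostasis libraries, while at 3 h the library that stood apart lay above the mutant ones and the other 2 sibling libraries below them. The mutant to sibling difference was 1.11 ± 0.47 in homeostasis and 0.30 ± 0.47 at 3 h with 12 libraries, neither called (adjusted p = 0.265 and 0.721), and 1.09 ± 0.23 and 1.33 ± 0.27 with 11 (adjusted p = 0.0102 and 0.00652). A fit on the 6 homeostasis libraries alone, which holds no 3 h sample, called cox4i1l, ndufa4b and cox6b1 higher in mutants and COX7A2 (ENSDARG00000053217) lower, at -0.48 (adjusted p = 0.0453).

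To set the overall level of a library aside, the share of each gene in its paralog pair was also taken within libraries, where scaling cancels. These shares were chosen after the values were seen and carry no test. Of the counts of cox4i1l and COX4I1 together, cox4i1l held 7.03 ± 1.9% in sibling homeostasis, 24.5 ± 2.38% in mutant homeostasis, 0.538 ± 0.183% in siblings at 3 h and 5.14 ± 0.843% in mutants at 3 h (SD, n = 3). The share of ndufa4b in its pair was 7.2 ± 1.38%, 23.3 ± 2.16%, 0.808 ± 0.14% and 8.97 ± 2.32% in the same order, and that of cox6b1 was 13.6 ± 1.23%, 29 ± 3.54%, 9.45 ± 2.98% and 18.9 ± 1.4%. In each of the 3 pairs the mutant homeostasis libraries held the highest shares and the sibling 3 h libraries the lowest, and the library that stood apart lay with its group. Near-identical stretches between paralogs can lose reads, since multimapping reads were set apart from the gene counts.

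**Figure D3:**
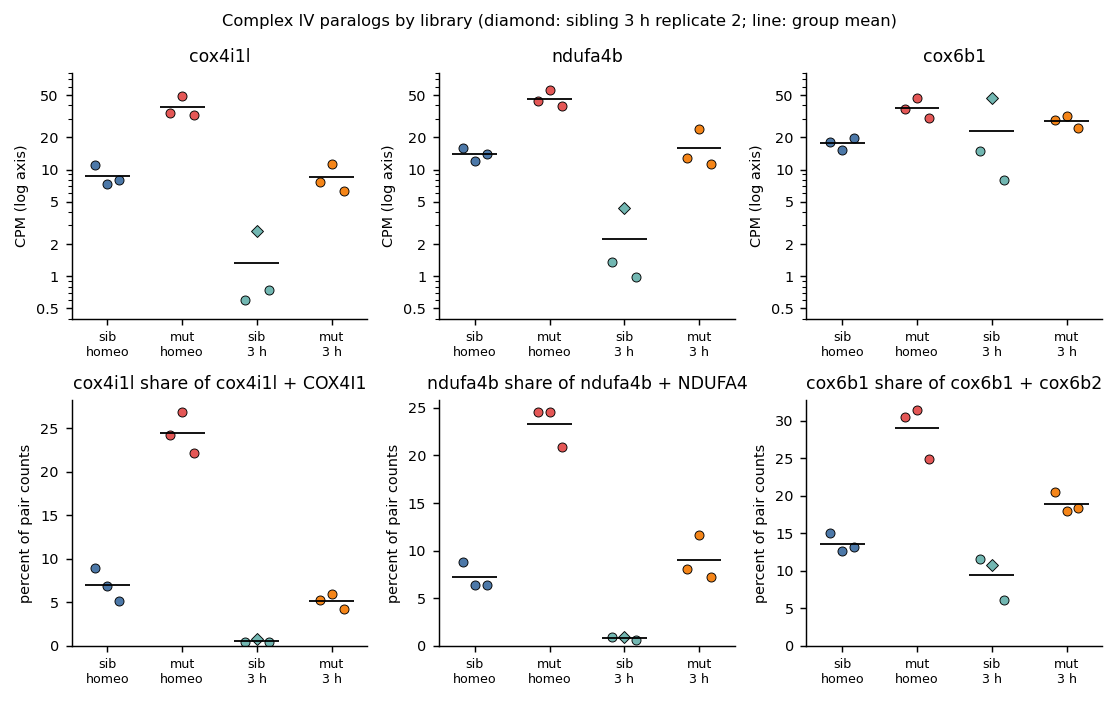
Top, CPM on a log axis of cox4i1l, ndufa4b and cox6b1 in each library; bottom, the percent of the counts of each paralog pair that this gene took. Sib is sibling, mut is mutant, homeo is homeostasis, the line is the mean of 3 libraries and the diamond is sibling 3 h replicate 2, which is high in CPM but sits with its group in the shares.

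Cells other than neuromast cells were represented unevenly in the groups in which these paralogs differed. The summed CPM of 20 skeletal muscle markers was 57.3 to 77.1 in sibling homeostasis, 172 to 285 in mutant homeostasis, 87.6 to 104 in siblings at 3 h and 119 to 189 in mutants at 3 h, and that of 7 erythrocyte markers was 119 to 209, 1049.6 to 1485, 269 to 502 and 665 to 1368. The sum of 10 markers of ionocytes, mitochondria-rich skin cells, was 619 to 993, 669 to 891, 624 to 795 and 536 to 609, with ranges that overlapped between mutants and siblings in homeostasis. Most of it in homeostasis came from 1 gene, ATP1B1 (ENSDARG00000013144), with 503 to 681 CPM in siblings and 497 to 617 in mutants. The sum therefore says little of the other markers. TRPV6 had 7.19 to 21.3 and 3.09 to 19.1 CPM in these groups, and slc12a10.2 had 6.32 to 43 and 9.08 to 35. The 13 hair cell markers summed to 33457 to 40399, 16165 to 20703, 3117 to 9509 and 1669 to 3209 CPM, lower in mutants in homeostasis and lower after neomycin in both genotypes, with ranges that overlapped between the genotypes at 3 h. In homeostasis pvalb8 made up most of this sum, at 23699 to 29034 CPM in siblings and 11693 to 15097 in mutants. Of the 13, 0 were called higher and 4 lower in mutants in homeostasis with 12 libraries, and 0 and 9 with 11. After neomycin 1 was called higher and 11 lower in siblings with 12 libraries, and 0 and 11 in mutants. ATOH1 was higher in siblings at 3 h, at 173 to 438 CPM against 97.7 to 138 in homeostasis. No marker of these lists was at 0 in all libraries. Epidermis markers summed to 1629 to 2121, 1150.4 to 1588, 1152 to 1246 and 787 to 942 CPM in the same order, below every sibling value in mutants both in homeostasis and at 3 h. In homeostasis krt5 made up the largest part of this sum, at 1259 to 1423 CPM in siblings and 620 to 923 in mutants. The list as a whole did not follow it. Of its 9 genes, 2 were called higher and 0 lower in mutants in homeostasis with 12 libraries (median log2 change 0.46). With 11 libraries 3 were higher and 2 lower (median 0.43). Support and mantle cell markers summed to 2941 to 3841, 3899.6 to 4526, 4124 to 5684 and 4329 to 5388. The largest part was krt4, at 1451 to 1675, 1738 to 2105, 2132 to 2554 and 2036 to 2531 CPM. This list also holds ISL1, the mutated gene. Of its 11 genes, 3 were called higher and 3 lower in mutants at 3 h in both fits, so the sum does not speak for each marker. Leukocyte markers, higher after neomycin in both genotypes, summed to 49.8 to 131, 111 to 165, 301 to 1036 and 182 to 368. Exocrine pancreas markers varied widely within groups, at 864 to 5526, 684 to 1837, 1446 to 8804 and 368 to 2067. Liver and plasma protein markers came to 1239 to 2823, 229 to 1464, 792 to 4996 and 634 to 1964. Heart muscle markers were low, at 35.2 to 48.7, 25.8 to 30.4, 18.2 to 51.2 and 12.2 to 17.5. The part of these cells in the members' values was not tested, and in bulk samples fewer cells of a type and less RNA per cell cannot be told apart.

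Of the remaining nuclear subunits of complex IV, only COX7A2L and NDUFA4L2 were called in the 12- or 11-library fits. COX5B (ENSDARG00000015978) and COX7C, which had the most counts of the nuclear complex IV members, had means of 261 ± 16.7 and 218 ± 16 CPM in sibling homeostasis and 215 ± 26.2 and 180.4 ± 25.7 in mutant homeostasis, and were not called. COX7A2L, known in mammals as a scaffold of respiratory supercomplexes, was higher after neomycin. Sibling homeostasis libraries had 31.8, 27 and 39.6 CPM of COX7A2L, mutant homeostasis libraries 33.1, 41 and 33.6, sibling 3 h libraries 50.1, 147 and 51.9 and mutant 3 h libraries 55.5, 89.1 and 58.6. All treated libraries were above all untreated ones. The log2 change in mutants was 0.90 ± 0.19 (adjusted p = 0.00333) with 11 libraries and 0.92 ± 0.37 with 12, where it was not called (adjusted p = 0.120). In siblings it was 1.34 ± 0.37 with 12 libraries (adjusted p = 0.0226) and 0.59 ± 0.21 with 11, which was not called (adjusted p = 0.0593).

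Among isoforms known in mammals for tissue or oxygen, COX4I2, the isoform linked to low oxygen, had 7.73 ± 1.43, 4.92 ± 1.3, 9.21 ± 3.51 and 5.0 ± 1.82 CPM in sibling and mutant homeostasis and in siblings and mutants at 3 h. The muscle isoform cox7a1 had 8.74 ± 2.03, 5.82 ± 0.427, 12.4 ± 5.13 and 7.92 ± 2.98 CPM, and cox8b had 3.97 ± 0.071, 4.81 ± 0.877, 3.81 ± 2.51 and 2.96 ± 1.78. Neither these 3 nor cox8a, cox6a1, COX6A1 (ENSDARG00000054588), cox6b2 or either gene named COX7A2 was called in the 12- or the 11-library fit. NDUFA4L2 (ENSDARG00000103114), a hypoxia-induced relative of NDUFA4 in mammals, stayed under 1 CPM in 11 libraries and reached 2.53 CPM in the library that stood apart, and its call in siblings with 12 libraries (4.71 ± 1.5, adjusted p = 0.0405) was kept in 4 of the 12 fits that left out a library; without the library that stood apart the change was 2.8 ± 1.44 (adjusted p = 0.198).

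In complex I, NADH dehydrogenase, nuclear subunits called after neomycin with 11 libraries were lower, apart from NDUFAB1, and assembly factors called were higher. In siblings these lower calls come from the fit that left out a library because the members were high in it. With 12 libraries all 30 tested accessory subunits had sibling values above 0, and 1 was called higher and 0 lower. Beside the counts by role here and below, 9.24% of all tested genes were called higher and 13.1% lower in siblings with 11 libraries. In mutants these shares were 13% and 14.3%. With 12 libraries they were 11% and 10.7% in siblings and 6.8% and 9.43% in mutants. Of its 6 tested core subunits, 2 were lower in siblings and 1 in mutants with 11 libraries, and 0 were called with 12 in either genotype. NDUFV1, which binds NADH and the flavin, was lower in both. In CPM, NDUFV1 stood at 277, 194 and 231 in the sibling homeostasis libraries, 203, 198 and 157 in the mutant homeostasis libraries, 110.2, 201 and 124 in siblings at 3 h and 107, 169 and 114 in mutants at 3 h. In siblings the other 2 treated libraries were below the untreated ones and the library that stood apart lay among them, and in mutants treated and untreated libraries overlapped. The log2 change was -1.04 ± 0.21 in siblings (adjusted p = 0.00292) and -0.54 ± 0.18 in mutants (adjusted p = 0.0419) with 11 libraries, and -0.69 ± 0.26 and -0.52 ± 0.26 with 12, neither called. NDUFS7, an iron-sulphur subunit near the quinone site, had a log2 change of -0.59 ± 0.14 in siblings (adjusted p = 0.0105) with 11 libraries and 0.17 ± 0.34 with 12, a change of sign.

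The 30 tested accessory subunits, which surround the core and are needed for its assembly, gave 1 higher and 4 lower calls in siblings with 11 libraries, and 1 higher and 0 lower with 12. The lower ones were ndufv3 (-0.65 ± 0.15, adjusted p = 0.00827), ndufa5 (-0.49 ± 0.14), NDUFB9 (-0.51 ± 0.16) and ndufc1 (-0.46 ± 0.15), and their 12-library values were 0.24 ± 0.38, 0.47 ± 0.40, 0.54 ± 0.43 and 0.57 ± 0.42, all of the opposite sign. The higher one was NDUFAB1, the mitochondrial acyl carrier protein, which also serves fatty acid and iron-sulphur cluster synthesis. Its level was 85.1, 75.6 and 93.4 CPM in sibling homeostasis, 82.4, 89.3 and 86.2 in mutant homeostasis, 119, 369.9 and 131 in siblings 3 h after neomycin and 119.5, 175 and 123 in mutants 3 h after neomycin. Every treated library lay above every untreated one in both genotypes. Its log2 change was 0.52 ± 0.16 in siblings (adjusted p = 0.0334) and 0.68 ± 0.14 in mutants (adjusted p = 0.00367) with 11 libraries, and 1.29 ± 0.36 and 0.69 ± 0.36 with 12, where the mutant change was not called. Its paralog ndufab1b had 80.1 ± 15 and 69.8 ± 3.11 CPM in sibling and mutant homeostasis and 74.7 ± 20.1 in mutants at 3 h, and was not called. NDUFB11 was lower in mutants at 3 h with 12 libraries (-1.26 ± 0.36, adjusted p = 0.0445) a call kept in 2 of the 12 fits that left out a library, and not with 11 (-0.61 ± 0.24, adjusted p = 0.116). NDUFB8, an accessory subunit with many counts, was not called.

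Every assembly factor of complex I that was called was higher. Of 8 tested after neomycin, 4 were higher in siblings and 1 in mutants with 12 libraries, and 2 were higher in each genotype with 11; their median log2 change with 11 libraries was 0.34 in siblings and 0.45 in mutants. NDUFAF7, a methyltransferase needed for complex I assembly in mammals, was higher in both genotypes in both fits. Sibling homeostasis libraries had 7.73, 5.85 and 7.12 CPM of NDUFAF7, mutant homeostasis libraries 12.7, 9.12 and 11.7, sibling 3 h libraries 12.7, 22.2 and 13.5 and mutant 3 h libraries 20.2, 28.9 and 20.1. The order of the groups was complete in homeostasis, where every mutant library was above every sibling library, and after neomycin every library was above the highest untreated one of its genotype. Its log2 change was 1.22 ± 0.27 in siblings (adjusted p = 0.00617) and 1.04 ± 0.26 in mutants (adjusted p = 0.0171), and 0.87 ± 0.21 and 1.03 ± 0.19 with 11 libraries. Mutants exceeded siblings by 0.67 ± 0.19 in homeostasis and 0.83 ± 0.21 at 3 h with 11 libraries (adjusted p = 0.0446 and 0.0236), and neither was called with 12 (adjusted p = 0.202 and 0.230).

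NDUFAF8, a partner of NDUFAF5 in complex I assembly, followed. In CPM, NDUFAF8 stood at 5.65, 5.26 and 7.49 in the sibling homeostasis libraries, 8.15, 8.13 and 7.29 in the mutant homeostasis libraries, 10.9, 33.2 and 13.5 in siblings at 3 h and 10.8, 12.9 and 14.3 in mutants at 3 h. Treated and untreated libraries did not overlap in either genotype. The change was 1.65 ± 0.36 in siblings with 12 libraries (adjusted p = 0.00636) and 0.95 ± 0.22 with 11 (adjusted p = 0.00780), and 0.68 ± 0.20 in mutants with 11 (adjusted p = 0.0233), where the 12-library value of 0.69 ± 0.35 was not called (adjusted p = 0.227). NDUFAF4 and NDUFAF3 were higher in siblings only with 12 libraries (1.48 ± 0.46 and 0.98 ± 0.32), and without the library that stood apart their changes were 0.58 ± 0.30 and 0.39 ± 0.20, not called; NDUFAF3 is named beyond the rule for named genes, after its values were seen. NDUFAF1, the assembly factor with the most counts, had 25.3 ± 3.32, 22.2 ± 0.535, 44.8 ± 23.1 and 30.5 ± 8.14 CPM.

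**Figure D4:**
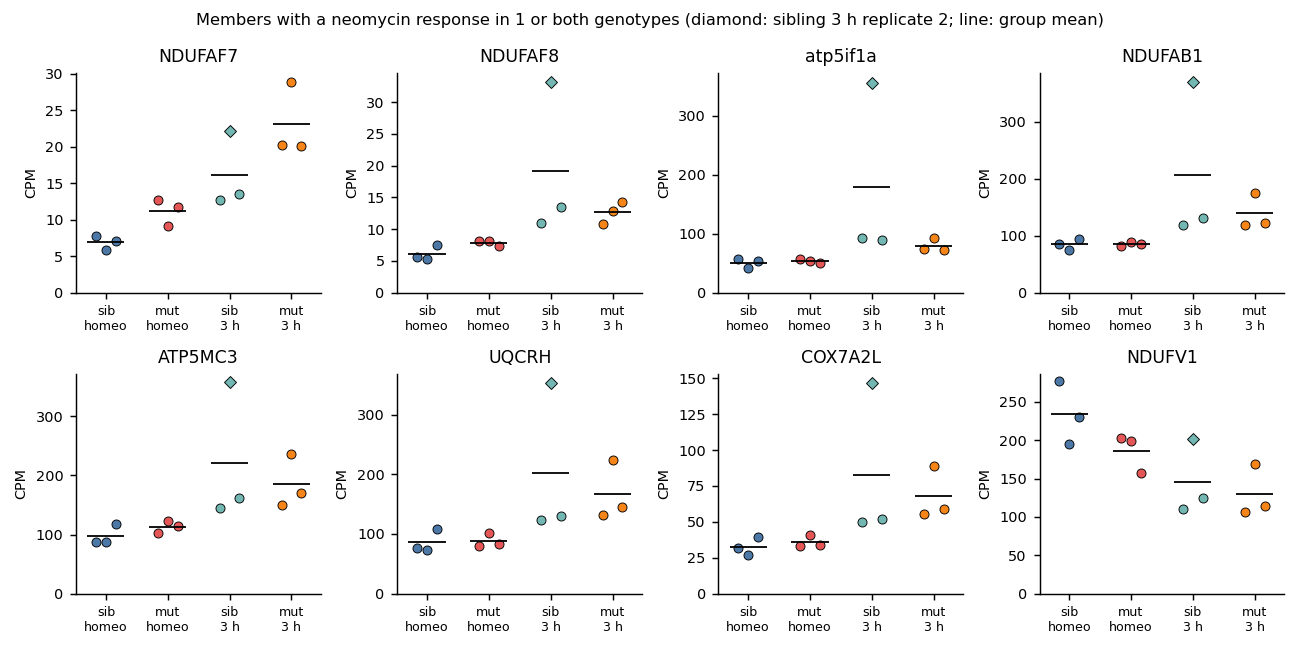
CPM on linear axes from 0 of 8 members called after neomycin, 7 higher and NDUFV1 lower, in each library; sib is sibling, mut is mutant, homeo is homeostasis, the line is the mean of 3 libraries and the diamond is sibling 3 h replicate 2. Mutant 3 h libraries of NDUFAF7, from 20.1 to 28.9 CPM, lie above all mutant homeostasis libraries.

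Complex II, succinate dehydrogenase, is made of 4 nuclear subunits and is also an enzyme of the citric acid cycle. With 11 libraries SDHA, the flavoprotein that oxidizes succinate, was lower after neomycin in siblings. Its level was 325, 229.7 and 214 CPM in sibling homeostasis, 255, 199 and 202 in mutant homeostasis, 171, 191 and 176 in siblings 3 h after neomycin and 153, 209 and 159.5 in mutants 3 h after neomycin. Treated sibling libraries lay below the untreated ones without overlap, and the library that stood apart did not stand out for this gene. The log2 change was -0.61 ± 0.19 with 11 libraries (adjusted p = 0.0387) and -0.51 ± 0.21 with 12, which was not called (adjusted p = 0.0961). In mutants it was -0.34 ± 0.17 (adjusted p = 0.163). SDHB, the iron-sulphur subunit, had 232 ± 27.4, 193 ± 15, 261 ± 152 and 192 ± 69 CPM and was not called, while the membrane anchor SDHC was higher in mutants after neomycin by 0.37 ± 0.13 with 11 libraries (adjusted p = 0.0482) and not called with 12 (0.39 ± 0.34, adjusted p = 0.507). Of the 4 assembly factors, SDHAF4, which helps load SDHA, was lower in siblings with 11 libraries (-0.91 ± 0.24, adjusted p = 0.0167) and not with 12, where the value had the opposite sign (0.17 ± 0.46, adjusted p = 0.842). SDHAF2 and SDHAF3 were not called.

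All 8 complex III members were tested, and UQCRH alone was called. It encodes the hinge protein between cytochrome c1 and cytochrome c. Sibling homeostasis libraries had 76.7, 73.7 and 108 CPM of UQCRH, mutant homeostasis libraries 79.2, 102 and 82.7, sibling 3 h libraries 124, 354 and 131 and mutant 3 h libraries 132, 223 and 146. After neomycin all libraries of both genotypes were above all untreated ones. In mutants the log2 change was 0.90 ± 0.20 (adjusted p = 0.00486) with 11 libraries and 0.92 ± 0.37 with 12 (adjusted p = 0.116). In siblings it was 1.23 ± 0.37 with 12 libraries (adjusted p = 0.0321) and 0.51 ± 0.22 with 11, not called (adjusted p = 0.121). UQCRFS1, the Rieske iron-sulphur protein, had 218 ± 19.2, 204 ± 9.88, 340.1 ± 197 and 283 ± 86.1 CPM, and the core protein UQCRC1 had 219.9 ± 17.2, 210.3 ± 11.9, 309.6 ± 127 and 266 ± 50.6.

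In complex V, ATP synthase, the main catalytic subunits were not called, while a rotor subunit and a gene for the inhibitor rose after neomycin. ATP5F1B and ATP5F1A, the beta and alpha subunits of the catalytic head, had 709 ± 37.8 and 424 ± 69.2 CPM in sibling homeostasis, 634 ± 65.2 and 424 ± 36.5 in mutant homeostasis and 663 ± 119.6 and 422 ± 80.8 in mutants at 3 h, and neither was called. Of 18 tested subunits, 1 was higher and 2 lower in siblings with 11 libraries and 1 higher with 12. The higher one in both fits was ATP5MC3, which encodes subunit c of the membrane rotor. In CPM, ATP5MC3 stood at 87.9, 88.1 and 117 in the sibling homeostasis libraries, 102, 122 and 114 in the mutant homeostasis libraries, 144, 357 and 162 in siblings at 3 h and 149, 236 and 171 in mutants at 3 h. Untreated and treated libraries did not overlap within a genotype. Its log2 change with 11 libraries was 0.60 ± 0.19 in siblings (adjusted p = 0.0368) and 0.70 ± 0.17 in mutants (adjusted p = 0.00845), and 1.18 ± 0.32 and 0.72 ± 0.31 with 12. The other genes for subunit c, atp5mc1 and atp5mc3b, were not called; their sibling homeostasis means were 175 ± 30.7 and 256 ± 42.8 CPM, and in mutants at 3 h they were 164 ± 30.7 and 268 ± 41.2. Lower in siblings with 11 libraries were ATP5PO, the stalk protein that confers oligomycin sensitivity (-0.50 ± 0.15, adjusted p = 0.0349), and atp5meb, a gene for subunit e (-0.53 ± 0.15, adjusted p = 0.0275). With 12 libraries their values were 0.36 ± 0.38 and 0.42 ± 0.40, of the opposite sign and not called (adjusted p = 0.549 and 0.504).

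The ATP synthase inhibitor blocks ATP hydrolysis by the enzyme when the proton gradient is lost, and zebrafish have a pair of genes for it. The gene atp5if1a was higher after neomycin in both genotypes. Its level was 56.8, 41.7 and 54 CPM in sibling homeostasis, 56.3, 53.3 and 49.7 in mutant homeostasis, 93.2, 356 and 89.4 in siblings 3 h after neomycin and 74.8, 92.4 and 72.4 in mutants 3 h after neomycin. Treated libraries were above untreated ones in every case. With 11 libraries its log2 change was 0.80 ± 0.15 in siblings (adjusted p = 0.00208) and 0.58 ± 0.14 in mutants (adjusted p = 0.00719); with 12 it was 1.82 ± 0.43 (adjusted p = 0.0102) and 0.59 ± 0.42 (adjusted p = 0.406). Its paralog atp5if1b had 80.4 ± 10.1, 72.5 ± 1.67, 164 ± 137 and 77.4 ± 7.12 CPM and was not called, with an 11-library change of 0.04 ± 0.14 in siblings and 0.08 ± 0.12 in mutants. Across all complexes, 8 members passed the threshold after neomycin in both genotypes with 11 libraries, each in the same direction in both: NDUFAF7, NDUFAF8, NDUFAB1, ATP5MC3 and atp5if1a higher, and cox4i1l, ndufa4b and NDUFV1 lower. In that fit 22.3% of all tested genes were called in siblings and 27.3% in mutants. The share of all tested genes called in both is not given here, so the 8 are a description.

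Of the 13 genes of the mitochondrial genome, MT-ND1 and MT-ND2 rose after neomycin in siblings in both fits. The 13 together took 2.05%, 1.31% and 1.82% of the gene counts in sibling homeostasis, 1.77%, 1.7% and 2.18% in mutant homeostasis, 2.16%, 2.93% and 2.37% in siblings at 3 h, and 2.13%, 1.94% and 2.17% in mutants at 3 h. Sibling 3 h shares lay above all sibling homeostasis shares, and mutant shares overlapped. Scaled by TMM, the summed CPM of the 13 did not overlap in either genotype. These sums ran from 13355 to 19673 in sibling homeostasis and 19746 to 38826 in siblings at 3 h. In mutants they ran from 16657 to 20354 in homeostasis and 20485 to 21202 at 3 h. The log2 change was above 0 for all 13 in both genotypes and both fits, with a median of 0.31 in siblings and 0.24 in mutants with 11 libraries, but few passed the test. Of all tested genes, 11528 of 22615 were above 0 in siblings and 10611 in mutants with 11 libraries. With 12 libraries these were 12270 and 10439 of 22000. The signs of the 13 genes rest on the same libraries and are not independent of each other. In siblings 3 were higher with 12 libraries and 2 with 11, and in mutants edgeR called 0 in either fit, with 0 and 1 at an unadjusted p under 0.05.

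MT-ND1, a complex I subunit at the quinone channel, was higher in siblings in both fits. Sibling homeostasis libraries had 213, 138 and 207 CPM of MT-ND1, mutant homeostasis libraries 175, 226 and 242, sibling 3 h libraries 286, 433 and 301 and mutant 3 h libraries 281, 306 and 293. All 6 treated libraries were above all 6 untreated ones. The change was 0.61 ± 0.19 in siblings with 11 libraries (adjusted p = 0.0355) and 0.87 ± 0.23 with 12 (adjusted p = 0.0156), and 0.44 ± 0.17 in mutants (adjusted p = 0.0752). A fit on only the mutant groups called MT-ND1 higher after neomycin (0.44, adjusted p = 0.0488). One on only the sibling groups, with all their libraries, called neither MT-ND1 nor MT-ND2. The calls therefore do not set siblings apart from mutants for this gene. MT-ND2, a proton-pumping subunit of complex I, rose by 0.59 ± 0.18 in siblings with 11 libraries (adjusted p = 0.0369) and by 0.69 ± 0.20 with 12, and its mutant change was 0.34 ± 0.17 (adjusted p = 0.156). MT-ATP6, the proton channel of complex V, was called in siblings with 12 libraries (0.81 ± 0.25, adjusted p = 0.0355) and not with 11 (0.43 ± 0.18, adjusted p = 0.111).

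The catalytic core of complex IV, MT-CO1, had 5293 ± 1553, 6003 ± 813, 6710.1 ± 291 and 7143 ± 72.7 CPM. Its fellow subunits MT-CO2 and MT-CO3 reached 11192 and 11409 CPM in the library that stood apart and had 4045 and 4717, and 3847 and 4400.0, in the other 2 of its group, while MT-CO1 had 6496, 7041 and 6593 CPM there. MT-CYB, the mitochondrial subunit of complex III, had 1632 ± 342, 1656 ± 218, 2746 ± 1176 and 2104 ± 85.5 CPM. The complex I subunits MT-ND4 and MT-ND5 had 667 ± 133 and 457 ± 33.1 CPM in sibling homeostasis and 953 ± 66 and 576 ± 3.38 in mutants at 3 h. The low MT-ND3, MT-ND6, mt-nd4l and mt-atp8 had sibling homeostasis means of 47.1 ± 11.5, 62.7 ± 4.99, 32.4 ± 7.57 and 10.3 ± 2.48 CPM, and were not called. Vertebrate mt-atp8 overlaps MT-ATP6 and mt-nd4l overlaps MT-ND4, so reads in the overlaps cannot be assigned to either gene, and the library kit does not keep the strand, which matters for MT-ND6 on the opposite strand.

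**Figure D5:**
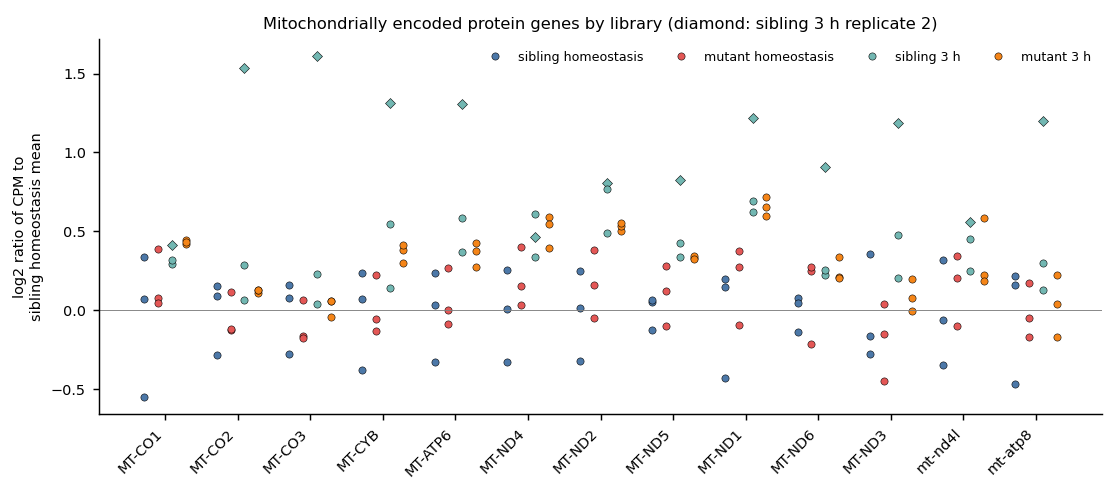
Log2 ratio of CPM to the sibling homeostasis mean for the 13 mitochondrially encoded protein genes in each library, coloured by group, with the diamond for sibling 3 h replicate 2. MT-CO2 and MT-CO3 are far higher in that library than in any other, MT-CO1 and MT-ND4 are not, and the 6 treated libraries of MT-ND1 lie above its 6 untreated ones.

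Nuclear complex I members summed to 2838 ± 269 CPM in sibling homeostasis, 2473 ± 203 in mutant homeostasis and 2512 ± 464 in mutants at 3 h (SD, n = 3), and to 2436, 7363 and 2496 in the 3 sibling 3 h libraries. The sums of complex IV were 1774 ± 192, 1625 ± 195 and 1757 ± 334, with 1601, 5334 and 1603 in the sibling 3 h libraries. Complex V gave 3326 ± 362, 3110.1 ± 256 and 3226 ± 572, with 3169, 7485 and 3163. In all 3 complexes the library that stood apart was above the other 11 and the other 2 of its group lay below the sibling homeostasis mean. Complex II summed to 657 ± 90.8, 565 ± 44.5 and 554 ± 127 CPM and 503, 1115 and 542 in siblings at 3 h, and complex III to 826 ± 82.1, 802 ± 51.1 and 1068 ± 250.5 and 874, 2058 and 932. The mitochondrially encoded genes came to 17234 ± 3396, 17930.0 ± 2100.5 and 20950.1 ± 403 CPM, and 19746, 38826 and 22211. These sums carry no test.

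Other mitochondrial genes were read in lists that were chosen with earlier results of these data known, and among them calls after neomycin were mostly on the higher side for import, assembly and biogenesis. Beside the counts below, of all tested genes 11% were called higher and 10.7% lower in siblings after neomycin with 12 libraries and 9.24% and 13.1% with 11, and in mutants 6.8% and 9.43% with 12 and 13% and 14.3% with 11. Leukocyte markers were higher after neomycin as given above, and their part in these lists was not tested. Of 22 tested genes for protein import through the outer and inner membrane, 15 were higher and 1 lower after neomycin in siblings with 12 libraries and 14 and 1 with 11, and in mutants 6 were higher with 12 and 16 with 11, with 0 lower. Their median log2 change with 11 libraries was 0.66 in siblings and 0.76 in mutants, beside -0.07 and 0.07 for the oxidative phosphorylation members. An example is tomm6, a small part of the outer membrane channel, at 1.12 ± 0.14 in siblings and 1.28 ± 0.13 in mutants with 11 libraries and 2.25 ± 0.47 and 1.3 ± 0.45 with 12, where the mutant change was not called. Of 39 assembly factors outside the name patterns, 11 were higher in siblings with 12 libraries and 7 with 11 (1 lower), and 2 and 13 (1 lower) in mutants. BCS1L, which inserts the Rieske protein into complex III, changed by 0.82 ± 0.19 and 0.98 ± 0.18 with 11 libraries (1.1 ± 0.24 and 1.0 ± 0.24 with 12), and OXA1L, which inserts mitochondrially made proteins into the membrane, by 0.64 ± 0.14 and 0.80 ± 0.13 with 11 libraries (1.03 ± 0.24 and 0.81 ± 0.24 with 12).

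Among 21 genes for mitochondrial transcription and biogenesis, 6 were higher and 1 lower in siblings and 6 were higher in mutants with 11 libraries (7 and 1, and 3, with 12). The coactivator pprc1, which acts on nuclear genes for mitochondrial proteins in mammals, changed by 1.93 ± 0.24 in siblings and 1.82 ± 0.23 in mutants with 11 libraries (2.28 ± 0.30 and 1.82 ± 0.29 with 12), and SSBP1, which coats single-stranded mitochondrial DNA, by 1.3 ± 0.18 and 0.98 ± 0.17 (2.19 ± 0.41, and 0.99 ± 0.40, not called, with 12). Citric acid cycle genes were mostly not called: of 34, 0 were higher and 5 lower in siblings and 2 higher and 5 lower in mutants with 11 libraries, and with 12 they were 0 and 1 in siblings and 0 and 0 in mutants. MDH1, cytosolic malate dehydrogenase, was lower in mutants, at -0.59 ± 0.13 in homeostasis and -0.69 ± 0.14 at 3 h with 11 libraries; with 12 the values were -0.57 ± 0.23, not called (adjusted p = 0.236), and -1.02 ± 0.23. Of 29 genes for mitophagy and mitochondrial stress, 9 were higher in mutants than in siblings at 3 h with 11 libraries and 5 with 12, with 0 lower, against 7.11% and 4.82% of all tested genes. OPTN, an autophagy receptor for damaged mitochondria, had 1.61 ± 0.18 there with 11 libraries and 1.5 ± 0.20 with 12, and SQSTM1, another such receptor, 1.47 ± 0.17 and 1.22 ± 0.22. For 5 of the 29 the neomycin response itself was higher in mutants with 11 libraries, among them DDIT3, a stress transcription factor gene (1.43 ± 0.18, adjusted p = 0.00490), against 0.92% of all tested genes called in either direction. With 12 libraries 0 of the 29 were called for this difference, where 0.0955% of genes were, and DDIT3 had 0.77 ± 0.44 (adjusted p = 0.649).

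Carriers and other partners of the chain gave few calls, 1 higher and 1 lower of 21 in siblings and 2 and 1 in mutants after neomycin with 11 libraries, and 1 and 1, and 0 and 1, with 12. VDAC1, the main pore of the outer membrane, was lower after neomycin, at -1.21 ± 0.16 in siblings and -0.83 ± 0.14 in mutants with 11 libraries (-0.86 ± 0.22 and -0.82 ± 0.22 with 12). The uncoupling protein UCP1 was lower in mutants than in siblings, at -1.5 ± 0.32 in homeostasis and -2.73 ± 0.35 at 3 h with 11 libraries; with 12 they were -1.48 ± 0.44, not called (adjusted p = 0.0933), and -2.37 ± 0.45. The cytochrome c gene cycsb, whose protein carries electrons from complex III to complex IV, was called higher after neomycin in mutants with 11 libraries (1.06 ± 0.19) and in siblings with 12 (1.5 ± 0.43, adjusted p = 0.0245). The sibling value with 11 libraries was 0.57 ± 0.20 (adjusted p = 0.0631) and the mutant value with 12 was 1.08 ± 0.42 (adjusted p = 0.110), neither called.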

How the data were processed

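The authors deposited a table of raw read counts per Ensembl gene for the 12 RNA libraries, made with the SMART-Seq v4 kit; STAR 2.7.3a, bcl2fastq 2.18, RSEM, Bowtie2 and danRer11 are named in the submitters' processing notes without their roles, and no source used here states the annotation release or the strand setting. The other 18 samples of the series, chromatin accessibility libraries, were not analysed here. The 4 entries that name no gene, 28.2% to 35.2% of reads, entered neither library sizes nor tests. Of 32520 gene IDs, 29201 matched a symbol in the name table.

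Counts were scaled by TMM and tested in R 4.3.3 with edgeR 4.0.16 (limma 3.58.1): filterByExpr, 1 quasi-likelihood fit over all 12 libraries and 4 groups, 5 contrasts, and Benjamini-Hochberg adjustment over 22000 genes with a threshold of 0.05. The 11-library fit tested 22615 genes. The common biological coefficient of variation was 32.3%. The script was also tested on simulated data, drawn with the common dispersion of these libraries and without a library that stood apart. CPM were taken on library sizes after TMM; sums and shares carry no test. Reads were counted without molecular identifiers, so depth covers counting error only.

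The labels do not say that replicates came from separate clutches or sorts, so each p-value reflects only spread among these libraries, which may be technical. Every pair of replicates differed by more than sampling noise. Replicate numbers are shared by the groups. At 3 h all same-numbered sibling and mutant pairs had residual correlations over 0.1 (0.302, 0.460 and 0.192), and in the other comparisons at least 1 pair did not. Sibling replicate 1 and mutant replicate 3 at 3 h also passed 0.1 (0.155). The pair at 0.460 holds the library that stood apart. Over all groups, 9 of 18 pairs with the same number passed 0.1. Of those with different numbers 6 of 36 did, the highest at 0.200. The numbers may therefore pair the samples at 3 h, which the labels do not state. The adjusted p-values given for the genotypes at 3 h are from fits without pairing, and the replicate block is an alternative. Members, gene lists and tests were chosen with earlier results of these data known. Members named are those called (up to the 12 smallest adjusted p per direction and contrast), those with the most counts per role, known isoforms and the mitochondrially encoded genes. A result that this rule names is not reported here. Of the pathway entries, 152 matched a symbol exactly, 19 through the stem of the name and 4 not at all; of the marker entries these numbers were 70, 19 and 11. Promoter motifs were planned but not run, since no sequences were at hand. Alternatives were DESeq2 1.42.0, other scalings and filters, the replicate block, fits on only the groups compared, and each library left out.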

Additional observations from a re-analysis of the deposited data

Results flagged for a closer look

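The response of ndufa4b to neomycin differed between the genotypes by 2.07 on the log2 scale in the 11-library fit (edgeR quasi-likelihood interaction term, adjusted p = 0.0357), which is a difference between the effects of neomycin in mutants and in siblings. The fall was smaller in mutants. When a further library was left out the value ran from 1.71 to 2.32 and the adjusted p from 0.0222 to 0.172, and the call was kept in 3 of 11 fits. With no scaling factor it was 1.83 (adjusted p = 0.0742). With all 12 libraries it was 1.14 (adjusted p = 0.641).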

How the results depend on the processing

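No called value of a single gene changed sign under the alternatives to its own fit. For calls with 11 libraries these alternatives do not include the fit with all libraries, and between those fits signs did change. In siblings after neomycin NDUFS7, ndufv3, ndufa5, NDUFB9, ndufc1, SDHAF4, ATP5PO and atp5meb were called lower with 11 libraries. With all libraries their values were of the opposite sign, as given above, and were not called. Of the counts of members called, that for mutants against siblings in homeostasis (1) became 2 with no scaling factor, with no filter on low counts, with DESeq2 or with the replicate block, and 4 with only the groups compared; the count over all genes (754) became 1827 with DESeq2, 1198 with the replicate block and 2250 with only the groups compared. For the genotypes at 3 h DESeq2 gave 5 members (3) and 3571 genes (2105), and only the groups compared gave 571 genes. For siblings after neomycin the 15 members became 23 with no scaling factor, 25 with DESeq2 and 3 with only the groups compared. With only the groups compared, the count over all genes went from 4762 to 2203. For mutants after neomycin only the groups compared gave 11 members (3) and 6182 genes (3570). For the interaction the 21 genes became 7 with no scaling factor and 374 with DESeq2; with 11 libraries the 1 member became 0 with no scaling factor and 2 with DESeq2, and the 208 genes 106 and 797. The replicate block gave 3 members and 2753 genes for the genotypes at 3 h, where the numbers may pair the samples, and 14, 3 and 0 members for siblings after neomycin, mutants after neomycin and the interaction. Where no count over all genes is given beside a count of members in this paragraph, the count of members is a description. Complex II in mutant homeostasis summed to 518 CPM without its assembly factors, and with all reads as the denominator the mitochondrial share was 1.19%, 1.26%, 1.71% and 1.41% in sibling homeostasis, mutant homeostasis, sibling 3 h and mutant 3 h libraries. The cause of these shifts was not tested.

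When each of the 12 libraries was left out, members called ran from 0 to 4 and 2 to 11 for the genotypes in homeostasis and at 3 h, 4 to 34 and 1 to 11 for siblings and mutants after neomycin and 0 to 1 for the interaction, and genes from 268 to 2089, 854 to 2944, 2988 to 5323, 2110 to 6164 and 3 to 208. With 11 libraries and a further one left out, members ran from 2 to 7, 2 to 4, 4 to 24, 8 to 13 and 0 to 1, and genes from 1084 to 2581, 1070 to 3150, 2924 to 5743, 4766 to 6309 and 17 to 278. For siblings after neomycin the 15 members became 8 and 4 without sibling homeostasis replicates 1 and 2, 9 without mutant homeostasis replicate 2, and 34 and 26 without sibling 3 h replicates 1 and 3; with 11 libraries the 19 became 7 and 4 without sibling 3 h replicates 1 and 3. For the genotypes at 3 h the 3 became 11 and 6 without sibling 3 h replicates 1 and 3, and with 11 libraries the 4 became 2 without replicate 3. For the genotypes in homeostasis the 1 member became 0 without sibling homeostasis replicates 2 or 3 or any mutant homeostasis replicate, 2 without sibling 3 h replicates 1 or 3 or mutant 3 h replicate 2, and 4 without sibling 3 h replicate 2; with 11 libraries the 4 became 2 without sibling homeostasis replicate 2 and 7 without mutant 3 h replicate 2. For mutants after neomycin the 3 became 1 without mutant homeostasis replicates 2 or 3 and 11 without sibling 3 h replicate 2. The alternatives on the 11 libraries were chosen after the data were seen. Those that also leave out sibling 3 h replicate 1 or 3 hold 1 library of that group, so their counts are a description. Only the 13 protein genes, not the ribosomal RNA genes, were left out in the alternative without mitochondrial genes, and a fit on only the groups compared was not run for the interaction, which uses all of them.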

Other observations

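A pair of genes outside the name patterns was looked at after the values were seen, and their values are a description. CKMT1B (ENSDARG00000016598), a mitochondrial creatine kinase that passes energy from ATP to creatine, had 31.4 ± 2.28 CPM in sibling homeostasis, 64.5 ± 16.7 in mutant homeostasis, 13.9 ± 5.14 in siblings at 3 h and 33.5 ± 6.18 in mutants at 3 h (SD, n = 3). Its fitted log2 difference between mutants and siblings in homeostasis was 1.04 with 12 libraries (edgeR quasi-likelihood adjusted p = 0.0522) and 1.02 with 11 (adjusted p = 0.00405), and at 3 h it was 1.27 and 1.62. EPAS1 (ENSDARG00000057671), a hypoxia-inducible factor gene, had 112 ± 11, 161 ± 12, 41.5 ± 9.25 and 73.6 ± 8.96 CPM in the same order of groups. After neomycin its log2 change was -1.43 in siblings and -1.13 in mutants with 12 libraries, and -1.4 and -1.14 with 11.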
